A study of Homo sapiens with 9 samples.

Results

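Nuclear receptors are transcription factors whose activity many small lipid-soluble molecules control, and 4 of them were followed here: PPARG, NR2F1, RORB and NR6A1. These 4 genes were chosen from their measured levels in these arrays, so their values are given as a description without a test. They are 4 of the 11991 named genes tested. Symbols were at hand only for probes in the authors' table of 20127, and 5 of those read the 4 genes: ILMN_1800225 for PPARG, ILMN_1786197 for NR2F1, ILMN_1746658 for RORB, and ILMN_2352881 and ILMN_1686832 for NR6A1. Any further probes for them among the 47323 on the arrays could not be looked up. All 5 probes passed the filter on low values, detection at p under 0.05 by 3 or more of the 9 arrays. PPARG and RORB passed it through the group where they are high, so passing says nothing about the other groups.

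Total RNA of the human embryonic stem cell line H9 and of cells differentiated from it was measured on Illumina expression BeadChips, 3 arrays for each of 3 groups. The first group was undifferentiated H9 cells (hESC), kept on a feeder layer of mouse embryonic fibroblasts with bFGF at 4 ng/ml. In the second, H9 aggregates in suspension (embryoid bodies) had been treated with 40 nM BMP4 up to day 6. The third held perivascular progenitor cells (progenitors below): day 6 embryoid bodies were dissociated and plated on collagen in an endothelial growth medium, and the adherent cells were passaged. All groups descend from 1 cell line, feeder cells and bFGF are stated for the hESC alone, and the labels do not say whether arrays of a group came from separate cultures. Adjusted p-values therefore measure the spread between arrays, which may be technical. In a bulk sample, fewer cells of a type and less RNA per cell cannot be told apart.

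Each nuclear receptor joins a zinc-finger domain that reads DNA to a domain that binds a ligand or, in orphan receptors, has no agreed natural ligand. Many of them recognise the core motif AGGTCA, alone or as a repeat whose spacing differs between receptors. PPARG pairs with a retinoid X receptor and drives fat cell formation, and NR2F1 (COUP-TFI) is an orphan receptor of the neural crest and forebrain. RORB, a retinoid-related orphan receptor, is known from retina, cortex and the circadian system, and NR6A1 (germ cell nuclear factor) silences Pou5f1 in differentiating mouse embryonic stem cells.

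The sequence upstream of each start site is shown first, because a receptor promoter may itself hold the motif that receptors read. The windows are RefSeq promoters of build GRCh38.p14, each from 250 bases before to 50 after a start site, and all 4 receptors matched by symbol. Capitals mark AGGTCA, searched on both strands, and in the last line the retinoid repeat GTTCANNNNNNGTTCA. The PPARG windows are chr3:12287118-12287417 and chr3:12288810-12289109 on the plus strand. Those of NR2F1 and RORB are chr5:93582972-93583271 and chr9:74497085-74497384, plus strand, and that of NR6A1 is chr9:124771262-124771561, minus strand. RARB, a retinoic acid receptor that rose in the progenitors, is added with chr3:25428013-25428312, plus strand.
PPARG, first start: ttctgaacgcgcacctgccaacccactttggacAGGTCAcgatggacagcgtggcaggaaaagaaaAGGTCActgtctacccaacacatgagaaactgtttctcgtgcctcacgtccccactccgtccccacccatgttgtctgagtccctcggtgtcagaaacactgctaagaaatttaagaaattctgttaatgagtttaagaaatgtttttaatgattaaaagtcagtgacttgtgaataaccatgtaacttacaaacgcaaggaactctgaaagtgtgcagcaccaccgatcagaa
PPARG, second start: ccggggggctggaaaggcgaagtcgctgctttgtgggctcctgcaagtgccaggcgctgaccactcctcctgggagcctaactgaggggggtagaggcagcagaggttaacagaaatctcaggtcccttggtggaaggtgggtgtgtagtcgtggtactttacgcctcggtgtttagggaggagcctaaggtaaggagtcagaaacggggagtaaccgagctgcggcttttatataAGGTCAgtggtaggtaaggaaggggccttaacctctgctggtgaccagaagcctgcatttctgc
NR2F1: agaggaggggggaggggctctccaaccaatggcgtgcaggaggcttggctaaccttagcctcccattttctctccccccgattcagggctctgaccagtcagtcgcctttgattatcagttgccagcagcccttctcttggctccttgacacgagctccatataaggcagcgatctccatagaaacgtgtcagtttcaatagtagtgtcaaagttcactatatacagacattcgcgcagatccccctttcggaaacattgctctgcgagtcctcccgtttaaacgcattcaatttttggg
RORB: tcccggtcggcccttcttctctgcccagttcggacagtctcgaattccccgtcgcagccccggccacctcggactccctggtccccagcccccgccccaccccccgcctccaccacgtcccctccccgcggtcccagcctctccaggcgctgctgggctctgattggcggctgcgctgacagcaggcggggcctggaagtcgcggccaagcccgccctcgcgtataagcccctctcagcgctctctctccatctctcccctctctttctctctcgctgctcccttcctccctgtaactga
NR6A1: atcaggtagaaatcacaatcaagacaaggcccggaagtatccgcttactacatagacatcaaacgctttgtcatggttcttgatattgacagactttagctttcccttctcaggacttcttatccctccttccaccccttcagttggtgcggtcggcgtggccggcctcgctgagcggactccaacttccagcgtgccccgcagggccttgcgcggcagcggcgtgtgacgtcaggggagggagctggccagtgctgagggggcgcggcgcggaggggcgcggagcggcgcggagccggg
RARB: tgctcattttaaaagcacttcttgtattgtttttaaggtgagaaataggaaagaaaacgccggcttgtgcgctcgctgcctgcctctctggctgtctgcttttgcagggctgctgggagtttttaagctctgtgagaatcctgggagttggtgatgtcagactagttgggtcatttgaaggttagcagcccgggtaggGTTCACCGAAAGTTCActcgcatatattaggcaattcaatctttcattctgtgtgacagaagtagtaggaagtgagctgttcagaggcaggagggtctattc

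AGGTCA stood in 3 of the 6 PPARG windows and in none of the 2 of NR2F1, the 2 of RORB or the 1 of NR6A1. It stood in 13.8% of all 35116 windows in the table. The first PPARG window holds it 217 and 184 bases before the start, and the second 14 bases before; the remaining match lies in a window that overlaps the second. Of the RARB windows, 1 of 4 held AGGTCA. Another, printed above, held the retinoid repeat 52 bases before its start, a pattern found in 0.057% of all windows. The repeat AGGTCANAGGTCA, which the PPARG and retinoid X receptor pair reads, was in 0.0228% of windows, and AGGTCAAGGTCA, which NR6A1 reads, in 0.0171%, with no match in any window of the 4 receptors. These matches are descriptions of letters, not of bound sites.

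Levels are given as log2 of the background-corrected, quantile-normalized intensity, in the order of arrays 1, 2 and 3, and ± is an SD over 3 arrays. A probe counts as detected on an array at a detection p-value under 0.05. Between 37.96% and 44.74% of probes were detected per array. In each of 2 groups an array stood apart. At least 425 genes differed 2-fold or more between hESC array 3 and either other hESC array, which differed from each other in 2 genes. Progenitor array 2 differed so in at least 600 genes, against 29 between arrays 1 and 3. The arrays of the embryoid bodies differed in 6 to 43 genes. Where leaving out either of these arrays ended a named call or moved it by over 1.5-fold, the value without it is given. The words rose, fell and changed are kept for genes with an adjusted p below 0.05 and a difference of 2-fold or more. By that rule 3.09% of the 11991 genes changed between hESC and embryoid bodies (1.5% up, 1.59% down), and 33.7% between hESC and progenitors (14.7% up, 19% down). Between embryoid bodies and progenitors 34.2% changed (15.3% up, 18.9% down). Each group enters 2 of these comparisons, so they share arrays and are not independent of one another.

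PPARG was near background in the undifferentiated cells and in the embryoid bodies and bright in the progenitors. Its level was 5.65, 5.38 and 5.08 in hESC, 5.8, 6.03 and 5.9 in embryoid bodies, and 12.47, 12.69 and 12.58 in progenitors. The probe was detected on none of the hESC arrays, on 1 of 3 embryoid body arrays and on all 3 progenitor arrays. Progenitors and hESC were separated by 6.82 at their closest arrays, and the embryoid bodies lay just above the hESC with a gap of 0.15. The mean was 5.37 ± 0.28 in hESC, 5.91 ± 0.11 in embryoid bodies and 12.58 ± 0.11 in progenitors.

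In the progenitors PPARG was at least 104-fold higher than in hESC, a bound set by the lowest level at which any probe was detected on each hESC array. The fitted difference was 7.21 (SE 0.15) against hESC and 6.67 (SE 0.15) against embryoid bodies, the latter at least 94.9-fold on the same basis with 1 of 3 embryoid body arrays detected. Before any correction, the raw bead intensity was 128.2 to 170.1 in hESC, 173.2 to 183.5 in embryoid bodies and 5576 to 6318 in progenitors. The authors' own normalized values gave smaller differences, 5.58 and 5.18, with hESC at 7.03 ± 0.16 on that scale. Both are below the bounds, which are 6.69 and 6.57 in log2 and hold for this correction and offset only. Embryoid bodies minus hESC was 0.54 (SE 0.15), with 5 of those 6 arrays at background and both means below the lowest detected levels, so no fold is given.

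NR2F1 was also high in the progenitors, with more spread among their arrays, and low in both other groups. Levels were 6.47, 6 and 5.31 in hESC, 5.83, 6.55 and 6.2 in embryoid bodies, and 11.09, 12.84 and 11.35 in progenitors. The probe was detected on 2 of 3 arrays in hESC, 2 of 3 in embryoid bodies and all 3 in progenitors. All progenitor arrays were above all others, by 4.54 or more, whereas hESC and embryoid bodies overlapped. Group means were 5.93 ± 0.59, 6.2 ± 0.36 and 11.76 ± 0.94.

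Progenitors exceeded hESC in NR2F1 by 5.83 (SE 0.46, at least 49.6-fold) and embryoid bodies by 5.56 (SE 0.46, at least 45.2-fold). In each of those groups 2 of 3 arrays detected it. Progenitor array 2 was the highest of its group, and without it the differences were 5.29 and 5.02, at least 34.1-fold and 31.1-fold. Raw intensities were 145.7 to 231.6 in hESC, 174.9 to 210.4 in embryoid bodies and 2183, 7031 and 2679 in progenitors. The authors' values gave 4.41 and 4.25, smaller than the bounds, which are 5.63 and 5.5 in log2 over all arrays. Embryoid bodies minus hESC was 0.27 (SE 0.46), which turned to -0.04 without hESC array 3.

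RORB ran the other way: it was detected in the undifferentiated cells and close to background afterwards. Its level was 7.81, 7.64 and 8.12 in hESC, 5.7, 5.44 and 5.5 in embryoid bodies, and 5.45, 6.1 and 5.77 in progenitors. It was detected on all 3 hESC arrays, on none of the embryoid body arrays and on progenitor array 2 alone among the progenitors. Every hESC array was at least 1.53 above every other array, and the embryoid body and progenitor arrays overlapped. Means were 7.85 ± 0.24, 5.55 ± 0.14 and 5.77 ± 0.33.

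In the day 6 embryoid bodies RORB was at least 3.64-fold lower than in hESC, with a fitted difference of -2.31 (SE 0.18). Embryoid bodies without BMP4 were not measured, so BMP4 and the other differences in culture cannot be told apart. In progenitors, with 1 of 3 arrays detected, it was at least 3.38-fold lower than in hESC (-2.08, SE 0.18), and progenitors minus embryoid bodies was 0.22 (SE 0.18). The raw intensity was 371.3 to 446.8 in hESC against 151.2 to 168 in embryoid bodies and 146.5 to 176 in progenitors. The authors' values gave differences of -1.26 and -0.96, the latter under 2-fold. With the offset of 50 the fitted differences were -1.72 and -1.58. Both pairs are smaller than the bounds, which are -1.86 and -1.76 in log2. Of the markers of neural and retinal cells, tissues where RORB is known, 3 of 8 could be tested: NES, MAP2 and TUBB3. Their mean level was 9.98 to 10.21 in hESC, 9.64 to 9.95 in embryoid bodies and 9.02 to 9.76 in progenitors, and the remaining markers were not analysed here. The part of such cells in the RORB values was not tested.

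NR6A1 differed between groups by less than 2-fold on both of its probes, so the label of a switch is not borne out for it. The brighter probe, ILMN_2352881, read 6.22, 6.47 and 6.15 in hESC, 6.72, 6.71 and 6.43 in embryoid bodies, and 5.64, 6.01 and 5.84 in progenitors. It was detected on all 6 arrays of hESC and embryoid bodies, which overlapped, and on none of the progenitors, which lay below both. The dimmer probe, ILMN_1686832, read 5.59, 5.84 and 6.05 in hESC, 6.13, 5.93 and 6.36 in embryoid bodies, and 6.16, 6.01 and 6.21 in progenitors, with all groups overlapping. It was detected on 1, 2 and 2 arrays of the respective groups.

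The brighter NR6A1 probe was at least 1.16-fold lower in progenitors than in hESC and at least 1.46-fold lower than in embryoid bodies. In the fit the differences were -0.45 and -0.79 (SE 0.14 each), and embryoid bodies minus hESC was 0.34. For the dimmer probe the same differences were 0.3, -0.02 and 0.32, so the probes disagree on the progenitors. The brighter probe gave -0.12 and -0.26 on the authors' values, smaller than its bounds, which are -0.21 and -0.55 in log2. Raw intensities of that probe spanned 157 to 234.5 over all 9 arrays, a range near background.

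**Figure D1:**
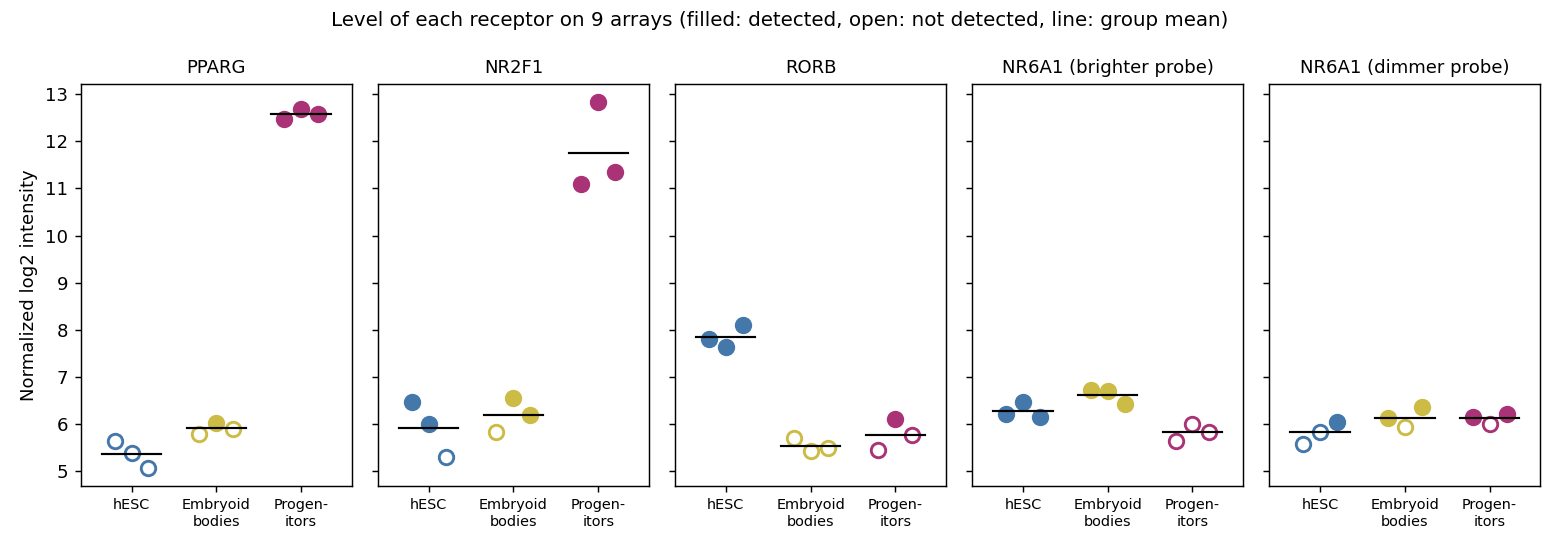
Normalized log2 intensity (vertical axis) of each receptor probe on the 9 arrays, with a panel for each of the 5 probes and the 3 groups along the horizontal axis; filled points were detected, open points were not, and lines are group means. PPARG (12.47 to 12.69) and NR2F1 (11.09 to 12.84) were high in progenitors, RORB (7.64 to 8.12) was high in hESC, and both NR6A1 probes lay between 5.59 and 6.72 in every group.

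Set side by side, the receptors differ in the group at which their level parted from hESC. RORB differed between hESC and embryoid bodies, at day 6, while PPARG and NR2F1 were at a like low level in both and differed in the passaged adherent cells. The size of each difference depended on how background was handled, as the plot of the differences under both normalizations shows, while its direction stayed under every alternative run for PPARG and NR2F1 in progenitors and for RORB against hESC.

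**Figure D2:**
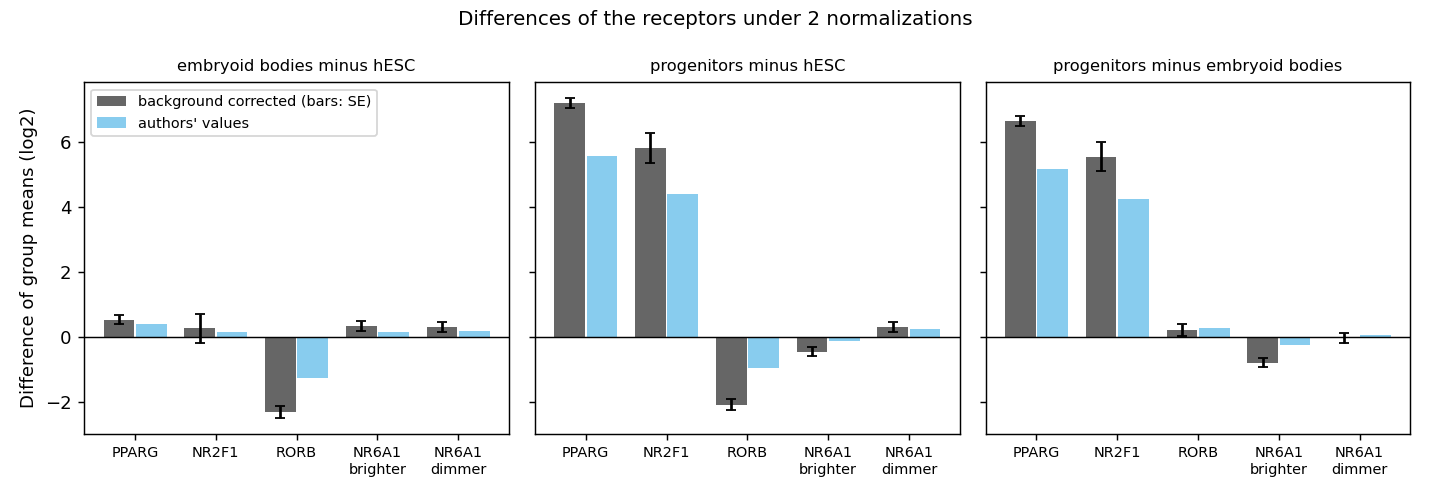
Differences of group means (log2, vertical axis) for the 5 receptor probes in the 3 comparisons; dark bars are background-corrected values with their SE, light bars the authors' normalized values. PPARG in progenitors minus hESC is 7.21 on the first scale and 5.58 on the second, and RORB in the same comparison is -2.08 and -0.96.

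Of the 44 other nuclear receptors, 17 could be tested, and 6 of them (35.3%) changed in at least 1 comparison, against 40.3% of all genes. Between hESC and embryoid bodies 1 of the 17 fell and none rose (5.88% changed, beside 3.09% of all genes). In progenitors against hESC 3 rose and 1 fell (23.5%, beside 33.7% of all genes). Against embryoid bodies 5 rose and 1 fell (35.3%, beside 34.2%). The median difference of the 17 was 0.07, 0.11 and 0.12 in the respective comparisons, beside -0.01, -0.07 and -0.08 over all genes. NR1H3, an oxysterol receptor, did not pass in progenitors against hESC at 0.97 (adjusted p = 5.22e-05) but passed at 1.08 without hESC array 3. On the authors' values the number changed was 0, 3 and 2, where the fit on corrected values gave 1, 4 and 6.

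The retinoid X receptors are the partners with which PPARG, the retinoic acid receptors and the thyroid hormone receptors bind DNA. RXRB was 9.28, 9.29 and 9.5 in hESC, 9.48, 9.45 and 9.47 in embryoid bodies, and 10.36, 11.08 and 10.45 in progenitors. It rose in progenitors by 1.28 against hESC (SE 0.18, adjusted p = 0.000166) and by 1.17 against embryoid bodies (adjusted p = 0.000286), the latter 0.94 and under 2-fold without progenitor array 2. RXRA was bright in every group, 9.87 to 10.1 in hESC, 9.46 to 9.55 in embryoid bodies and 10.07 to 10.76 in progenitors. Its differences of 0.33 against hESC (adjusted p = 0.122) and 0.81 against embryoid bodies (adjusted p = 0.00235) did not pass. RXRG was not analysed here.

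Among the close relatives of the 4 receptors, RORA fell in the progenitors. This receptor, of the same subgroup as RORB, was 8.11, 8 and 8.01 in hESC, 7.57, 7.83 and 7.48 in embryoid bodies, and 6.71, 6.68 and 6.42 in progenitors. It fell in progenitors by 1.44 against hESC (-1.44, SE 0.12, adjusted p = 6.68e-06), and its other probes, both undetected in progenitors, were at least 1.99-fold and at least 4.43-fold lower there. Against embryoid bodies it fell too (-1.03, adjusted p = 5.82e-05), a call lost at -0.93 without embryoid body array 2 and at -0.93 without progenitor array 3. Both RORA differences were under 2-fold in the authors' table, -0.76 and -0.49. PPARD, the widely expressed relative of PPARG, was 6.77 ± 0.25, 6.92 ± 0.23 and 7.44 ± 0.14 in hESC, embryoid bodies and progenitors, and its 0.66 against hESC (adjusted p = 0.00499) stayed under 2-fold. NR2F6, a relative of NR2F1, was 11.35 ± 0.06, 11.33 ± 0.06 and 10.73 ± 0.13, with a difference of -0.62 against hESC (adjusted p = 0.000312). PPARA and NR2F2 (COUP-TFII) were not analysed here.

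The receptors for thyroid hormone and retinoic acid also moved in the progenitors. THRA, thyroid hormone receptor alpha, was 6.55, 6.42 and 6.11 in hESC, 6.3, 6.6 and 6.74 in embryoid bodies, and 7.75, 8.55 and 7.99 in progenitors. It rose by 1.73 against hESC (SE 0.21, adjusted p = 8.33e-05) and by 1.55 against embryoid bodies (adjusted p = 0.000168), the latter 0.93 on the authors' values. RARB was not detected in hESC (5.49, 5.75 and 5.22), was 6.25, 6.47 and 6.29 in embryoid bodies and 7.27, 8.23 and 7.36 in progenitors. It rose in progenitors at least 3.34-fold against hESC (adjusted p = 5.27e-05) and by 1.29 against embryoid bodies (adjusted p = 0.00127), the latter 0.98 without progenitor array 2 and 0.73 on the authors' values. Its other probe gave 0.87 and 0.77 in those comparisons, under 2-fold. RARA, its widely expressed relative, rose against embryoid bodies by 1.32 (SE 0.15, adjusted p = 5.55e-05), and its 0.92 against hESC (adjusted p = 0.000598) did not pass, though it did at 1.01 without hESC array 1 and at 1.03 without progenitor array 1.

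NR5A2, an orphan receptor that sustains Pou5f1 in the early mouse embryo, was low in the embryoid bodies. It was 8.29, 8.14 and 8.29 in hESC, 6.84, 6.75 and 6.88 in embryoid bodies, and 8.41, 7.99 and 8.65 in progenitors. The embryoid bodies lay below both other groups, which overlapped. It fell in embryoid bodies by 1.42 (-1.42, SE 0.15, adjusted p = 0.000761) and was higher by 1.53 in progenitors than there (adjusted p = 2.19e-05). Its other probe gave -1.53 and 1.63. Both differences were under 2-fold on the authors' values, at -0.86 and 0.98.

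**Figure D3:**
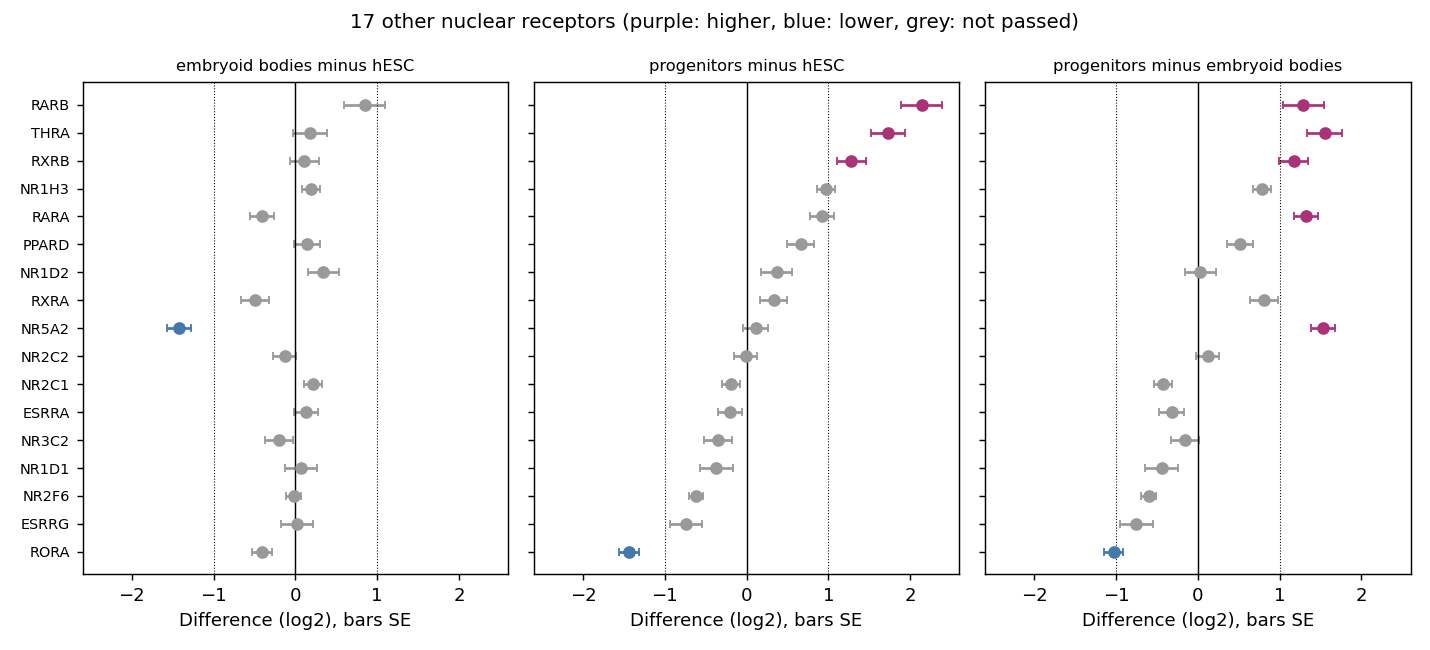
Differences (log2, horizontal axis) with SE for the 17 other nuclear receptors in the 3 comparisons; purple points rose, blue points fell, grey points did not pass, and dotted lines mark 2-fold. NR5A2 (-1.42) is the 1 receptor that changed between hESC and embryoid bodies, and in progenitors minus hESC the 4 that changed are RARB (2.14), THRA (1.73), RXRB (1.28) and RORA (-1.44).

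Genes that make, carry, break down or answer to retinoic acid, the ligand of the retinoic acid receptors, were tested in 10 of 17 cases, and 8 of the 10 changed in the progenitors. In this and the following lists up to 4 genes per comparison were named by the size of their change, and others that complete a count of 5 or fewer were named after their values were seen. Against hESC 5 rose and 3 fell (80% changed, beside 33.7% of all genes, with a median of 0.96 beside -0.07). On the authors' values 2 rose and 3 fell. TGM2, a transglutaminase induced by retinoic acid in many cells, was 5.48 to 5.97 in hESC, 5.58 to 5.9 in embryoid bodies and 14.39, 15.13 and 14.45 in progenitors. It rose at least 432-fold against hESC, where 1 of 3 arrays detected it, and at least 406-fold against embryoid bodies (adjusted p = 2.4e-09).

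STRA6, the cell-surface receptor that takes up retinol, rose by 2.07 (SE 0.37, adjusted p = 0.000796), with progenitor array 2 highest at 9.7, and by 1.38 with hESC array 3 and that array both left out. ALDH1A2 and RDH10, which make retinoic acid and its precursor, rose by 1.43 and 1.2, and ALDH1A1 rose by 1.18. The ALDH1A1 rise fell under 2-fold at 1 without progenitor array 1 (adjusted p = 0.0151) and at 0.99 without array 3, and the RDH10 rise at 0.98 with hESC array 3 and progenitor array 2 both left out. CYP26A1, the enzyme that breaks down retinoic acid, fell in steps, from 11.54, 11.6 and 11.09 in hESC to 10.02, 10.16 and 9.99 in embryoid bodies, and was undetected at 5.45, 5.79 and 5.83 in progenitors. It fell at least 40.5-fold in progenitors against hESC (adjusted p = 6.24e-09). LRAT, which stores retinol as esters, fell at least 4.91-fold (adjusted p = 9.1e-06) with 1 of 3 progenitor arrays detected, and CRABP2, a retinoic acid carrier, by 1.23 (-1.23, adjusted p = 0.000499).

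Between hESC and embryoid bodies ALDH1A1 rose by 1.72 (adjusted p = 0.00357) and CYP26A1 fell by 1.35 (-1.35, adjusted p = 0.00101). The other 8 retinoid genes did not pass (20% changed, beside 3.09% of all genes). Against embryoid bodies 5 retinoid genes rose and 3 fell in the progenitors (80%, beside 34.2% of all genes). The 5 were TGM2, STRA6, ALDH1A2, RDH10 and ALDH1A3, the last by 1.17 and under 2-fold, at 0.79, without progenitor array 2. Those that fell were CYP26A1 at least 15.8-fold, LRAT at least 6.51-fold and CRABP2 by 1.36 (-1.36).

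Nuclear receptor coregulators, the proteins that carry a receptor's signal to chromatin, had more members that fell than rose in progenitors. Against hESC 2 of 22 rose and 10 fell (54.5% changed), beside 14.7% of all genes up and 19% down, with a median of -0.7 beside -0.07. Against embryoid bodies 3 rose and 6 fell (40.9%, beside 34.2% of all genes). On the authors' values 1 rose and 5 fell against hESC, and 2 rose and 2 fell against embryoid bodies. NCOA7, a receptor coactivator, rose from 8.48 to 8.64 in hESC to 11.06 to 11.74 in progenitors, by 2.75 (SE 0.17, adjusted p = 8.54e-07). LCOR, a ligand-dependent corepressor, rose by 1.02, a call lost at 0.81 without hESC array 3, at 0.98 without progenitor array 1 and at 0.96 without progenitor array 2. Against embryoid bodies NCOA7 and LCOR rose, and NCOA6 rose by 1.63 (adjusted p = 1.26e-05).

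The list also holds zinc-finger cofactors, which were not set as a group beforehand and are described singly. BCL11A and BCL11B (CTIP1 and CTIP2), repressors that bind the COUP-TF receptors, fell by 2.98 (-2.98, SE 0.28, adjusted p = 1.28e-05) and at least 4.26-fold against hESC. BCL11B was 7.68, 7.86 and 8.95 in hESC, 7.15, 6.99 and 6.99 in embryoid bodies, and undetected in all progenitors. It was the 1 of 22 coregulators that changed in embryoid bodies (-1.12, adjusted p = 0.0235), a call lost without hESC array 3 (-0.73) and without each embryoid body array (-1.17, -1.09 and -1.1). NCOA6 was -0.99 there and passed at -1.17 without hESC array 3 and at -1.02 without embryoid body array 2. Of the Friend-of-GATA proteins, ZFPM2 fell at least 2.51-fold (adjusted p = 0.00276) with 1 of 3 progenitor arrays detected, and ZFPM1 did not pass at 0.59 (adjusted p = 0.0147). SIRT1, a deacetylase that represses PPARG in mouse fat cells, fell by 2.48 (-2.48, adjusted p = 2.48e-07), from 10.8 to 11.25 in hESC to 8.47 to 8.54 in progenitors.

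Target genes of the PPAR receptors were tested in 15 of 28 cases, and in progenitors against hESC 4 rose and 1 fell (33.3% changed, beside 33.7% of all genes, with a median of 0.24). ANGPTL4, a secreted inhibitor of lipoprotein lipase, was 10.06, 10.25 and 9.32 in hESC and 11.64, 12.03 and 11.79 in progenitors, a rise of 1.94 (SE 0.22, adjusted p = 4.61e-05). PLIN2, which coats lipid droplets, was 12.14 to 12.53 in hESC, 12.96 to 13.07 in embryoid bodies and 13.58 to 13.81 in progenitors, a rise of 1.28 against hESC (adjusted p = 1.53e-05). ACSL1, which activates fatty acids, rose by 1.77 (adjusted p = 2.72e-05) and was 0.98 on the authors' values. PDK4, a brake on glucose oxidation, was undetected in hESC and rose at least 3-fold (adjusted p = 0.00597), with progenitor array 2 at 8.78 and the others at 7 and 6.62. Without that array the PDK4 bound was 1.9-fold and the fitted difference 1.2 in place of 1.86. ACADM, an enzyme of fatty acid oxidation, fell by 1.05 (-1.05), a call lost without hESC array 1 (-1), hESC array 2 (-0.98) or progenitor array 1 (-0.97).

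None of the fat cell markers that could be tested passed. They were 3 of 5, and their mean level was 6.15 to 6.72 in hESC, 6.56 to 6.78 in embryoid bodies and 6.45 to 6.87 in progenitors. ADIPOQ (adiponectin) was detected on 1 of 3 progenitor arrays and differed from hESC by 0.24 (adjusted p = 0.426), CIDEC by 0.17 (adjusted p = 0.391) and LEP (leptin) by -0.06 (adjusted p = 0.874). PLIN1 and FABP4 were not analysed here. Against embryoid bodies ACSL1 rose at least 3.44-fold, with 1 of 3 embryoid body arrays detected, ANGPTL4 rose by 1.3 and ACADM fell (-1.12). The other 12 PPAR targets did not pass, so 20% changed, beside 34.2% of all genes. Between hESC and embryoid bodies limma called 0 of 15, with 7 at an unadjusted p under 0.05, beside 4280 of all 11991 genes. The number called was 2, both lower, without hESC array 3, and 1, lower, without embryoid body array 3 or without progenitor array 2.

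Regulators of fat cell formation, of which 16 of 23 were tested, moved both ways in the progenitors: 5 rose and 7 fell against hESC (75% changed, median 0.26), and 5 rose and 6 fell against embryoid bodies (68.8%). Over all genes 33.7% and 34.2% changed in these comparisons. The authors' values gave 4 that rose and 1 that fell against hESC. CEBPD and CEBPB, which act before PPARG in fat cell formation, were among those that rose. CEBPD was 8.19 to 8.39 in hESC, 8.4 to 8.52 in embryoid bodies and 13.74, 14.27 and 13.67 in progenitors, a rise of 5.59 (SE 0.15, adjusted p = 6.24e-09). CEBPB rose by 2.43 (SE 0.09, adjusted p = 3.92e-08). CEBPA, which acts together with PPARG in fat cells, went the other way, from 7.23 to 7.48 in hESC and 8.57 to 8.71 in embryoid bodies down to 6.17, 5.87 and 6.2 in progenitors. It rose in embryoid bodies by 1.3 (adjusted p = 0.000348) and fell in progenitors against hESC (-1.25, adjusted p = 1.33e-05). Those CEBPA differences were under 2-fold on the authors' values, at 0.88 and -0.54.

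The listed genes known to restrain fat cell formation include GATA2 and DLK1, which rose, and TCF7L2, an effector of Wnt signalling, which fell (-1.1, adjusted p = 0.000616). The TCF7L2 difference was -0.95 and under 2-fold with hESC array 3 and progenitor array 2 both left out. GATA2, a repressor of PPARG in mouse preadipocytes, was undetected in hESC at 4.84 to 4.9 and reached 7.08 to 7.34 in progenitors, at least 2.53-fold (adjusted p = 2.68e-07). In embryoid bodies 1 of 3 arrays detected GATA2, and the mean of 5.9 lay below the lowest detected levels there, so its fitted 1.02 against hESC, or 0.9 without embryoid body array 2, is no fold between measured levels. DLK1, preadipocyte factor 1, was 10.07, 12.09 and 10.09 in progenitors against 8.83 to 9.07 in hESC, a rise of 1.8 (SE 0.46, adjusted p = 0.00661), or of 1.13 without progenitor array 2. KLF2 completes the 5 that rose against hESC, by 1.27, and against embryoid bodies the fifth was SREBF1, by 1.09. ZNF423, which commits cells to the fat lineage, fell from 9.88 to 10.66 in hESC to 7.03, 7.89 and 6.9 in progenitors (-3.08, SE 0.28, adjusted p = 1.14e-05).

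Genes that NR6A1 is known to control in mouse include the pluripotency factors, and 4 of 10 were tested. All 4 fell in progenitors against both other groups, beside 19% and 18.9% of all genes. Between hESC and embryoid bodies limma called 0 of 4, with 3 at an unadjusted p under 0.05, beside 4280 of all 11991 genes. Their median in progenitors against hESC was -5.33, or -4.37 with undetected genes at their bound. POU5F1 (OCT4) was 12.81 to 12.92 in hESC, 13.19 to 13.27 in embryoid bodies and undetected in progenitors, at least 110-fold lower than in hESC (adjusted p = 1.2e-10). SOX2 fell at least 48.8-fold, and DPPA3 (STELLA), detected on 1 of 3 progenitor arrays, at least 5.24-fold (adjusted p = 2.68e-06). NANOG was 11.23 and 11.18 on hESC arrays 1 and 2 but undetected at 5.23 on array 3, beside 11.2 to 11.33 in embryoid bodies. Its fall in progenitors, at least 8.82-fold (adjusted p = 0.0227), was lost on leaving out any array of either group but hESC array 3, with adjusted p from 0.0513 to 0.0852. Without hESC array 3 it was at least 35.1-fold. Beside these genes, the brighter NR6A1 probe was detected on no progenitor array and the dimmer on 2 of 3.

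Clock genes of the loop that ROR receptors activate and REV-ERB receptors repress were tested in 13 of 17 cases. In progenitors against hESC 2 rose and 1 fell (23.1% changed, beside 33.7% of all genes, with a median of -0.24), and against embryoid bodies 2 rose and 3 fell (38.5%, beside 34.2%). NFIL3, a repressor of clock output, rose by 1.58 (SE 0.11, adjusted p = 1.61e-06) and BHLHE40, another repressor, by 1.47 (adjusted p = 4.53e-05). CIART, also a repressor of the loop, fell at least 2.77-fold (adjusted p = 8.96e-08) and was undetected in progenitors. PER3 and TEF fell against embryoid bodies (-1.44 and -1.34), where on the authors' values they were -0.8 and -0.63. BMAL1, on which the ROR receptors act, was 7.97 ± 0.28, 7.63 ± 0.17 and 8.27 ± 0.18 in hESC, embryoid bodies and progenitors and did not pass. The REV-ERB genes NR1D1 and NR1D2 did not pass either, at -0.37 (adjusted p = 0.125) and 0.37 (adjusted p = 0.106) in progenitors against hESC. Between hESC and embryoid bodies, where RORB moved, limma called 0 of 13 clock genes. Of these, 3 had an unadjusted p under 0.05, beside 4280 of all 11991 genes.

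The vessel genes tied in mouse to COUP-TFII, the nearest relative of NR2F1, were all tested, and 3 of 7 rose and 2 fell in progenitors against both other groups (71.4% changed, beside 33.7% of all genes against hESC and 34.2% against embryoid bodies). ANGPT1, a ligand that mural cells send to endothelium, was 7.34 to 7.62 in hESC and 11.79 to 11.88 in progenitors, a rise of 4.35 (SE 0.12, adjusted p = 6.9e-09). NRP1 and NRP2, receptors for VEGF and semaphorins, rose by 3.7 (adjusted p = 1.38e-08) and 1.82 (adjusted p = 6.11e-06). HEY2, an arterial Notch effector that COUP-TFII represses in mouse, was 10.7 to 11.3 in hESC and 11.83 to 11.91 in embryoid bodies and undetected in progenitors, at least 28.6-fold lower than in hESC (adjusted p = 3.54e-09). EPHB4, a vein receptor, fell by 1.39 (-1.39, adjusted p = 3.61e-06), while NOTCH1 (-0.38, adjusted p = 0.0206) and EFNB2 (-0.01, adjusted p = 0.989) did not pass. In embryoid bodies limma called 0 of 7, with 4 at an unadjusted p under 0.05, beside 4280 of all 11991 genes. The number called was 2, 1 up and 1 down, without hESC array 3 and 1, lower, without embryoid body array 3.

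**Figure D4:**
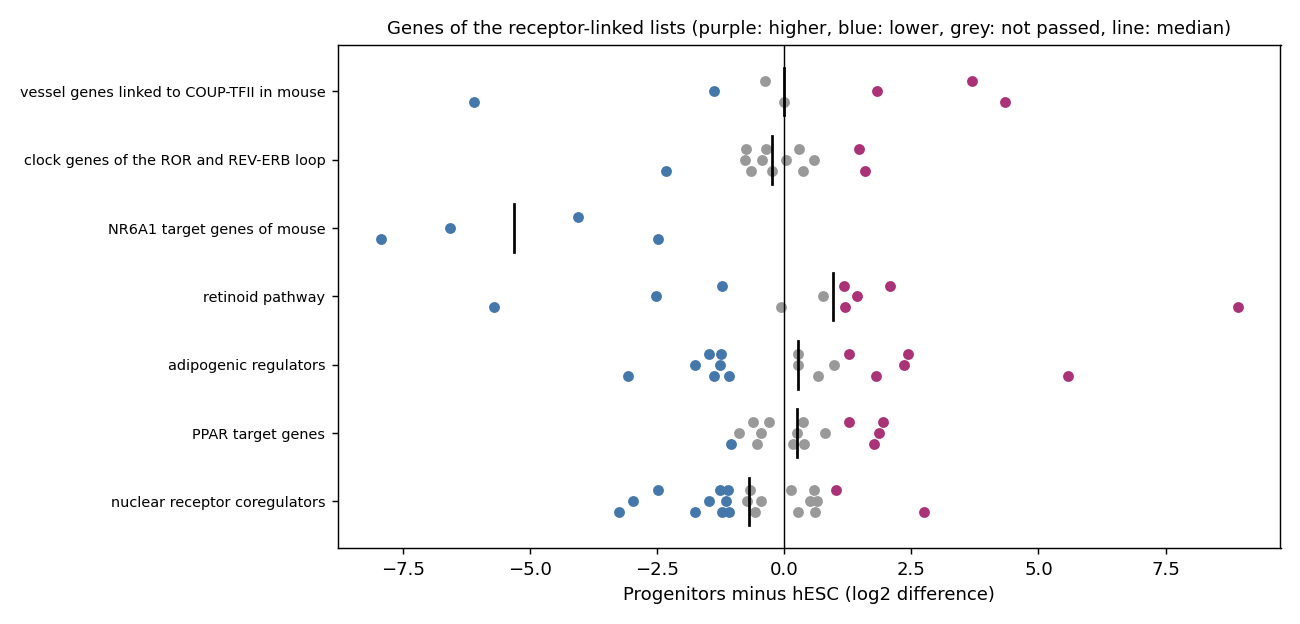
Differences between progenitors and hESC (log2, horizontal axis) for the tested genes of the 7 receptor-linked lists; each point is a gene, purple where it rose, blue where it fell and grey where it did not pass, and black lines are list medians. The lists spread to both sides of 0, from HEY2 (-6.1) and POU5F1 (-7.94) to CEBPD (5.59) and TGM2 (8.92), and the NR6A1 target genes of mouse all lie below 0.

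The genes nearest to each receptor in pattern were found by centring every gene on its mean over the 9 arrays and taking the root mean square difference in log2 units. PPARG was nearest to TGFBI, a matrix protein induced by TGF-beta (0.265), PAPPA, a protease that frees insulin-like growth factors (0.395), and RAB27B, a GTPase of secretory vesicles (0.437). TGFBI was 15.61 to 15.78 in progenitors and 8.57 to 9.63 on all other arrays. NR2F1 was nearest to SVEP1, a matrix protein (0.378), CEBPD (0.425) and MOXD1, a monooxygenase-like protein (0.441). In each of these 3 genes progenitor array 2 was highest, as for NR2F1, for example MOXD1 at 12.1 against 10.52 and 10.51. The genes were picked for closeness over these same arrays, so the shared pattern follows from the choice.

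RORB lay nearest to STC1, the secreted hormone stanniocalcin (0.229), PRICKLE1, of planar cell polarity (0.278), and the non-coding LINC00623 (0.422). All 3 were highest in hESC, for example STC1 at 10.93 to 11.59 there and 8.74 to 9.63 elsewhere. NR6A1 lay within 0.0872 of SNX2, C17orf58 and IER2, genes that like it moved little, such as SNX2 from 11.04 to 12.06 over all 9 arrays. These distances describe 9 arrays in 3 groups, and they were taken over genes that share those arrays. A pattern shared with the receptor is what the genes were picked for and is no separate result.

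**Figure D5:**
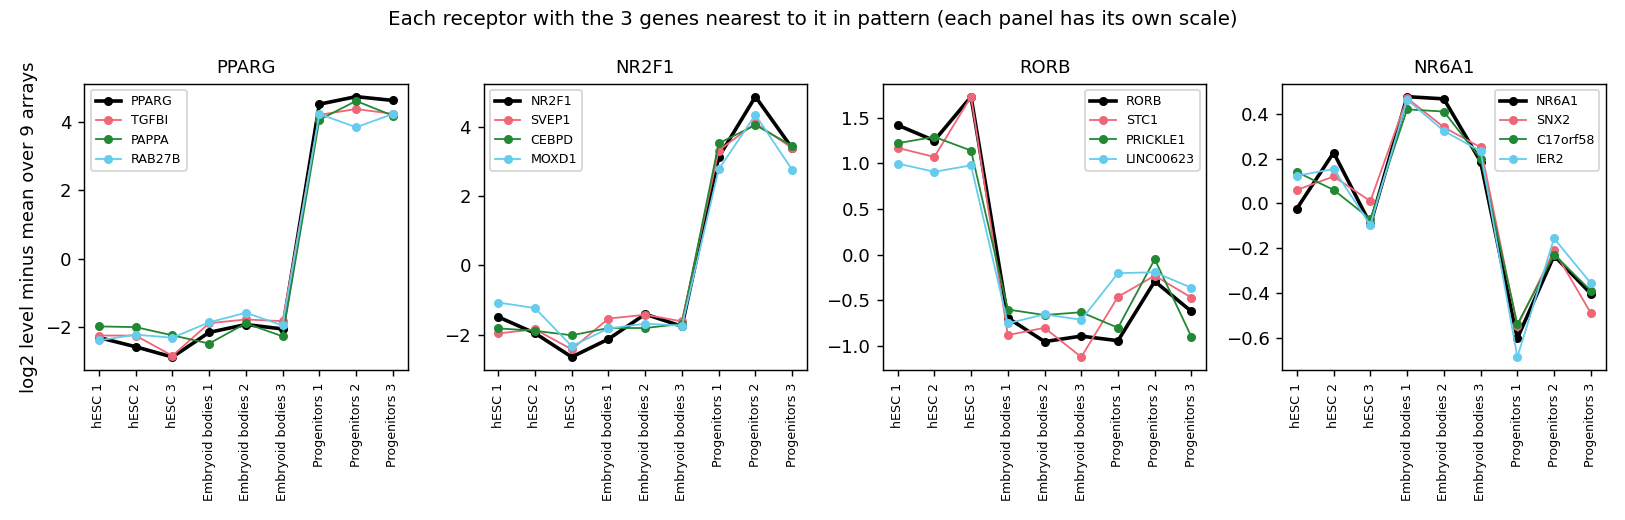
Level of each receptor (black) and of its 3 nearest genes (colours) on the 9 arrays, as log2 level minus the gene's mean over the arrays; the vertical scale differs between panels. TGFBI follows PPARG within a root mean square of 0.265 and SNX2 follows NR6A1 within 0.0816.

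The nearest tested genes on either side of each receptor, and any within its bounds, were taken from the RefSeq gene table after values were seen, and some lie far away. On the sides of PPARG, SYN2, a synaptic vesicle protein 95.3 kb away, fell at least 2.98-fold in progenitors against hESC (adjusted p = 1.08e-05), and MKRN2, a ubiquitin ligase 122.7 kb away, rose by 1.77 (adjusted p = 3.74e-07). Around NR2F1 the nearest tested genes, ARRDC3-AS1 at 2162.5 kb (0.23, adjusted p = 0.354) and KIAA0825 at 556.2 kb (0.13, adjusted p = 0.418), did not pass. For RORB, ANXA1, an anti-inflammatory annexin 1326.9 kb away, rose by 2.82 (adjusted p = 0.000471), or 3.47 without hESC array 3, and C9orf40, 253.4 kb away, did not pass (-0.15, adjusted p = 0.271). MIR181A2HG, the host transcript of a miR-181 cluster that lies within the bounds of NR6A1, was 7.98, 8.9 and 8.05 in progenitors. There it rose at least 5-fold against hESC (adjusted p = 7.7e-05), where 1 of 3 arrays detected it. PSMB7 at 101.8 kb (0.1, adjusted p = 0.417) and OLFML2A at 5.8 kb (0.09, adjusted p = 0.679) did not pass.

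Cell type markers moved beside the receptors. The mean level of 6 pluripotency markers was 11.96 to 12.83 in hESC, 12.79 to 12.85 in embryoid bodies and 6.39 to 6.46 in progenitors. That of 6 stromal markers was 7.88 to 7.99, 8.86 to 8.91 and 12.9 to 13.75, and that of 4 of 6 mural markers 7.13 to 7.47, 6.71 to 6.85 and 9.8 to 10.03. Among the mural markers PDGFRB, ACTA2 and ANPEP rose against hESC, by 4.57, 3.78 and 2.76, and RGS5 did not (-0.81, adjusted p = 0.00397), so the label of the progenitors was met by 3 of the 4. CSPG4 and MCAM were not analysed here. Of the stromal markers COL3A1, COL1A1, LUM, DCN and PDGFRA rose against hESC, and THY1, a surface glycoprotein of fibroblasts and also of stem cells, went the other way. THY1 was 11.69, 11.74 and 11.73 in hESC and 8.4, 9.62 and 8.41 in progenitors (-2.91, SE 0.28, adjusted p = 1.73e-05). PPARG and NR2F1 were thus high on the arrays where these 5 stromal and 3 mural markers were high and THY1 was low, and RORB on arrays where pluripotency markers were high, although those markers were as high in embryoid bodies, where RORB was not detected. Of 5 trophoblast and amnion markers TFAP2A and GABRP were tested, with a mean of 6.03 to 7.03 in hESC, 8.83 to 8.98 in embryoid bodies and 6.02 to 6.55 in progenitors. Of 5 endothelial markers KDR and TEK were tested, at 9.2 to 9.46, 8.39 to 8.43 and 8.63 to 9.93. These means join genes of unlike pattern. KDR was 9.24, 9.06 and 8.06 in hESC, 8.86 to 8.98 in embryoid bodies and 6.72, 8.46 and 7.18 in progenitors. TEK was 9.16, 9.4 and 10.87, then 7.82 to 7.91, then 10.55, 11.4 and 10.57. In progenitors against hESC KDR fell (-1.33), a call lost without hESC array 1 or 2 or progenitor array 1 or 3. TEK did not pass at 1.03 but did at 1.56 without hESC array 3. The part of these cell types in the receptor values was not tested.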

How the data were processed

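Total RNA of 9 H9-derived samples in 3 labelled groups was amplified, biotin-labelled and hybridised to BeadChips, per the labels' protocols. The deposited table without normalization gives a bead intensity and a detection p-value for each of 47323 probes on each array. The authors' second table, as deposited, holds normalized log2 values of 20127 probes. BeadStudio is named in the submitters' processing notes; neither its version nor the normalization behind the log2 values nor a genome build is given in the sources used here. Symbols came from the deposited platform annotation for the 20127 probes of that second table alone, with 15592 probes of 1 symbol, 4 of several and 4531 of none.

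Intensities were corrected with limma 3.58.1 (neqc, offset 16) in R 4.3.3, with the negative controls inferred from the detection p-values. Of 21683 probes detected at p under 0.05 on at least 3 arrays, 15592 had a symbol. They gave 11991 genes, each read by its probe of highest mean. All arrays were fitted together (lmFit, eBayes, two-sided, Benjamini-Hochberg over 11991 genes); the fit was tested on simulated data. A bound sets each array of a group not detected throughout at its lowest detected level, or at the probe's own level where higher, and none is given where the brighter group's mean lies below that level. Bounds hold for this correction and offset only, and other settings can give smaller differences. Bounds with each array left out were added after seeing the data. The number of arrays limits the precision.

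Members and lists were chosen with earlier results of these data known, and the members were not tested. Named were the 4 members, other receptors that changed, stated relatives, up to 4 genes per list and comparison, markers, and 3 nearest genes per member. Same-numbered arrays of different groups did not deviate together (correlations from -0.116 to 0.0637), so the numbers do not pair them. Alternatives were the authors' values, no background correction, median scaling, an offset of 50, other filters, the dimmer probe, a replicate block, the closest arrays averaged and each array left out. Probe sequences and proteins were not used here.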

Additional observations from a re-analysis of the deposited data

How the results depend on the processing

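Leaving out each array in turn kept progenitors minus hESC between 7.06 and 7.35 for PPARG, 5.29 and 6.16 for NR2F1, -2.25 and -1.92 for RORB, and -0.54 and -0.36 for NR6A1. Embryoid bodies minus hESC ran from 0.39 to 0.68 for PPARG, -0.04 to 0.54 for NR2F1, -2.42 to -2.18 for RORB and 0.28 to 0.44 for NR6A1. NR2F1 there reversed to -0.04 without hESC array 3, and also with progenitor array 2 left out besides. With both of those arrays left out, progenitors minus hESC was 7 for PPARG and 4.98 for NR2F1. On the authors' values it was 5.58, 4.41, -0.96 and -0.12 for PPARG, NR2F1, RORB and NR6A1, and without background correction 5.43, 4.35, -1.06 and -0.2. An offset of 50 gave 6.35 for PPARG and -1.58 for RORB. Embryoid bodies minus hESC was -1.26 for RORB and 0.14 for NR6A1 on the authors' values. Without background correction it was 0.3 for PPARG, -1.16 for RORB and 0.15 for NR6A1, and with the offset 0.32 for PPARG and -1.72 for RORB. The dimmer NR6A1 probe reversed progenitors minus hESC to 0.3.

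The number of other nuclear receptors changed, 1, 4 and 6 in the 3 comparisons, ranged over 1 to 1, 4 to 5 and 4 to 6 with an array left out. Between hESC and embryoid bodies it was 0 on the authors' values and without background correction. Averaging the closest arrays merges the 3 embryoid body arrays into 1, too few to measure a spread in that group. Counts of that setting are therefore not given, here or for single genes. The NR5A2 difference was -1.43 there. The number of other receptors changed was 2 in progenitors against hESC without background correction. Against embryoid bodies it was 2 both without that correction and on the authors' values. Over all genes 371, 4043 and 4099 changed, with ranges of 317 to 433, 3864 to 4131 and 3999 to 4182. The first became 151 on the authors' values, 147 without background correction, 246 with the offset and 591 with median scaling (93 up, 498 down). The authors' values gave 2627 and 2716 for the others. Median scaling moved the median of all genes to -0.28 and -0.24 against hESC. With the replicate block the receptor counts were 1, 4 and 6, all genes 361, 4045 and 4102, and none of 183 single results changed its call. For single genes, 47 calls were lost on the authors' values, 47 without background correction, 12 with the offset and 7 with median scaling. The setting without a filter could only give identical values, since every probe with a symbol had passed. Signal near background limits PPARG and RORB in their low groups and NR6A1 throughout, and the cause of each shift was not tested.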
